A study of Caenorhabditis elegans with 5 samples.

Results

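The regions described here were 5350 ChIP-seq peaks on the 5 autosomes of C. elegans whose summits lay inside an exon of a protein-coding gene and outside every promoter window. They were taken from the list of 24897 peaks that the authors called on the pooled replicates, by position alone: the summit had to fall in an exon and not between 1000 bp upstream and 200 bp downstream of the 5' end of any protein-coding gene (Ensembl annotation of WBcel235, which is ce11). The signal, the base composition and the replicate lists played no role in that choice. The summits lay in exons of 4042 of the 17242 autosomal protein-coding genes (23.4%).

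ATTF-4, a protein of the AT-hook transcription factor family, was mapped in larvae of the final stage, L4, from whole animals with males and females pooled. All libraries came from strain OP219, genotype unc-119(ed3) III; wgIs219, a stable transgenic line in which the product of C05D10.1 (attf-4) carries GFP and FLAG at its C-terminus. There was 1 condition with 3 biological replicates. Replicate 1 had 1 library, replicates 2 and 3 had 2 each, and the libraries of a replicate shared an alignment. No untagged strain and no other factor was among the samples, so peaks that depend on ATTF-4 and peaks that a ChIP of any tagged protein would give cannot be told apart. The material was whole animals, so the cells in which a peak arose are not known.

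AT-hooks are short peptide motifs that reach into the minor groove of DNA and favour runs of A and T, as known from mammalian HMGA proteins. Transcription factor peaks usually gather at promoters and in introns, where regulatory sequence is densest. Exons are constrained by the genetic code and are richer in G and C than the introns and 3' untranslated regions (UTRs) around them. The end of a worm gene is a compact place: the last exon usually carries the stop codon and the 3' UTR, and the next gene often starts or ends close by.

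Strong exonic peaks that were found in every replicate are shown first. They are places in exon sequence for which all 3 lists held a summit within 100 bp. Each sequence is the pooled summit with 50 bp on each side, read 5' to 3' on the strand of the gene from the RefSeq genome of the ce11 build, with coding bases in capitals and intron bases in lower case. Members whose stretch touched a UTR are not printed.
vhp-1 (chrII:5338302-5338402, plus strand): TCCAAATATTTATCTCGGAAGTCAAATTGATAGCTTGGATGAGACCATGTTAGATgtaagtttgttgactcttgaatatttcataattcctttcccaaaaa
hsp-1 (chrIV:17279925-17280025, plus strand): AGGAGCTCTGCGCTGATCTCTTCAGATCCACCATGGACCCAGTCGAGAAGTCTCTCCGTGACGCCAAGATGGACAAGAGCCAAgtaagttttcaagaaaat
pigt-1 (chrV:10958432-10958532, minus strand): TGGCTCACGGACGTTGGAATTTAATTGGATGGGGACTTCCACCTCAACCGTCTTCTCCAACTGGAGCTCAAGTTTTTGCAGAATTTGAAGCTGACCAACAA
hsp-110 (chrIII:8445186-8445286, minus strand): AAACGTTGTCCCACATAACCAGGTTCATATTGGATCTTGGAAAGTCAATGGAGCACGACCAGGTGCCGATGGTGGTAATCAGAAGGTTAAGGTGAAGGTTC
C14B4.2 (chrV:19341898-19341998, minus strand): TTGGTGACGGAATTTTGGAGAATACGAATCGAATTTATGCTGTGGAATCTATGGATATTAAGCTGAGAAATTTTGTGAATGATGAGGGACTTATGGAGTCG
dnpp-1 (chrIII:5862712-5862812, minus strand): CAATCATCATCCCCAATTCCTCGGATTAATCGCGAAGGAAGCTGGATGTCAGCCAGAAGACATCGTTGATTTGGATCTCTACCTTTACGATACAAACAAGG
sid-2 (chrIII:13680277-13680377, plus strand): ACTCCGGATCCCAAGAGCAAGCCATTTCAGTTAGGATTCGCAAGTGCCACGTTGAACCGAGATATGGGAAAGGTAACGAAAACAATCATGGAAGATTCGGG
F01F1.3 (chrIII:5874398-5874498, plus strand): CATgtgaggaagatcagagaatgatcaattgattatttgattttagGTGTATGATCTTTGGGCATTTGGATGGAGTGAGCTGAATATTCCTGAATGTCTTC
Of these 8, the stretches of pigt-1, hsp-110, C14B4.2, dnpp-1 and sid-2 were coding throughout, and those of vhp-1, hsp-1 and F01F1.3 crossed the edge of an intron. Their GC content ran from 31.7% in vhp-1 to 49.5% in hsp-1, and the longest unbroken run of A and T from 4 bp in sid-2 to 10 bp in vhp-1. hsp-1 and hsp-110 encode chaperones of the HSP70 and HSP110 families, and dnpp-1 is named as an aspartyl aminopeptidase. sid-2 encodes a membrane protein needed for uptake of double-stranded RNA from the gut.

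The strongest members of all lay at the ends of genes, and 5 of them are shown next by the nearby stretch that is not UTR, since UTR is not printed. Runs of at least 4 A or 4 T are in capitals here.
F57F5.3, coding end (chrV:12004635-12004735, minus strand): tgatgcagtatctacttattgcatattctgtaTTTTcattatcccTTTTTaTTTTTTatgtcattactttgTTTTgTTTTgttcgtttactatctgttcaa
F25B5.5, coding end (chrIII:5943919-5944019, minus strand): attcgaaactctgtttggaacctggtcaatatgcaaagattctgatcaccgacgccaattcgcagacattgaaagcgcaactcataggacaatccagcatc
lelo-2, coding end (chrIII:1419976-1420042, minus strand): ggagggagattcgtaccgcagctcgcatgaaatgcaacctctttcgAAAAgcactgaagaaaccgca
algn-12, coding end (chrV:8039178-8039254, plus strand): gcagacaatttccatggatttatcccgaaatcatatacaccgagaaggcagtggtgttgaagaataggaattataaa
nra-1, past the 3' end (chrIV:17281354-17281454, minus strand): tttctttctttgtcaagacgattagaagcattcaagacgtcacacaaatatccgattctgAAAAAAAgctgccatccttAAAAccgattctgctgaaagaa
The coding stretch of F57F5.3 held its summit, had a GC content of 25.7% and contained 5 such runs. The stretch of nra-1 lay between the ends of nra-1 and hsp-1, started 43 bp from the summit, had a GC content of 36.6% and contained 2 such runs. The coding ends of F25B5.5, lelo-2 and algn-12 started 54, 93 and 84 bp from their summits and had GC contents of 44.6%, 50.7% and 37.7%. That of lelo-2 contained 1 such run and those of F25B5.5 and algn-12 contained 0. Only the stretch of F57F5.3 held its summit, so the 5 stretches cannot show whether A and T runs were shared at the summits.

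Exonic peaks were numerous and few of them were strong. They made up 26.7% of the 20062 autosomal pooled peaks, while exonic sequence outside promoters made up 23.5% of the autosomal bases. This corresponded to 276 exonic peaks per Mb of such sequence, against 292 per Mb in promoter windows and 214 per Mb in introns. The median signal of the members, the authors' value per peak, was 9.23, with an interquartile range of 7.90 to 11.3 and a highest value of 44.2. The medians of intronic, promoter and just-downstream peaks were 9.16, 9.63 and 9.42, so the typical exonic peak differed little from peaks elsewhere. In the pooled list the difference was in the upper tail. A q-value of 0.05 or lower was given by the authors to 137 members, or 2.56%, against 4.47% of all autosomal pooled peaks. In the lists of replicates 1, 2 and 3 it was given to 21.2%, 20.3% and 5.97% of exonic peaks. The values for all their autosomal peaks were 21.4%, 20.7% and 7.23%, so this difference was small in replicates 1 and 2. The authors' final set, selected by the irreproducible discovery rate (IDR), a measure of agreement between replicate rankings, held 7 members, or 0.131% with an exact 95% interval of 0.0526% to 0.269%. It held 0.695% of all pooled peaks, 0.484% of the autosomal ones, 0.819% of the promoter peaks, 0.652% of those just downstream of genes and 0.442% of the intronic ones. The final set coincided with the strongest peaks of the pooled list, so membership follows a limit on signal: the weakest member inside it was nra-1 at 31.1 and the strongest outside it pck-2 at 28.6.

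The replicate lists were used to ask whether the exonic share depends on signal strength. The same rule gave 6556 exonic peaks in replicate 1, 4719 in replicate 2 and 6330 in replicate 3, which were 27.2%, 26.3% and 26% of their autosomal peaks. Among the 500 strongest autosomal peaks the exonic share was 18.8% in replicate 1, 22.8% in replicate 2 and 14% in replicate 3. Among the weaker peaks it was 27.3%, 26.4% and 26.3%. It was thus lower among the strong peaks in 3 of 3 replicates (mean difference -8.15 ± 4.34 percentage points, SD, n = 3), with a two-sided p of 0.25 in an exact sign-flip permutation test over replicates, the smallest p that 3 replicates allow. A share also depends on the other classes, and these moved too. Intronic peaks made up 23.2%, 24% and 23.4% of the 500 strongest, below their 27.8%, 28.5% and 28% of all autosomal peaks. In replicate 2 the intronic share fell by more than the exonic one. Promoter peaks made up 37%, 34.6% and 41.6% of the 500 strongest, above their 24.9%, 25.4% and 26.2% of all. Whether the exonic and intronic deficits differ was not tested. The exonic difference shrank to -2.51 points when the 2000 strongest peaks were taken and grew to -13.3 points with as many as the final set holds. In the pooled list the exonic share was 7% in the 100 strongest peaks, 11.3% in the next 150, 14.8% in the next 250 and 21.2% in the next 500, and it lay between 26.7% and 27.9% beyond rank 2000. Exonic peaks had a median signal percentile 1.39 points above that of intronic peaks (SD 0.233, n = 3, higher in 3 of 3 replicates, exact sign-flip permutation p = 0.25). The medians were 49.1, 49.9 and 48.8 for exonic peaks and 52.1, 51.9 and 52.8 for promoter peaks, so exonic peaks lay below promoter peaks there in 3 of 3 replicates.

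**Figure D1:**
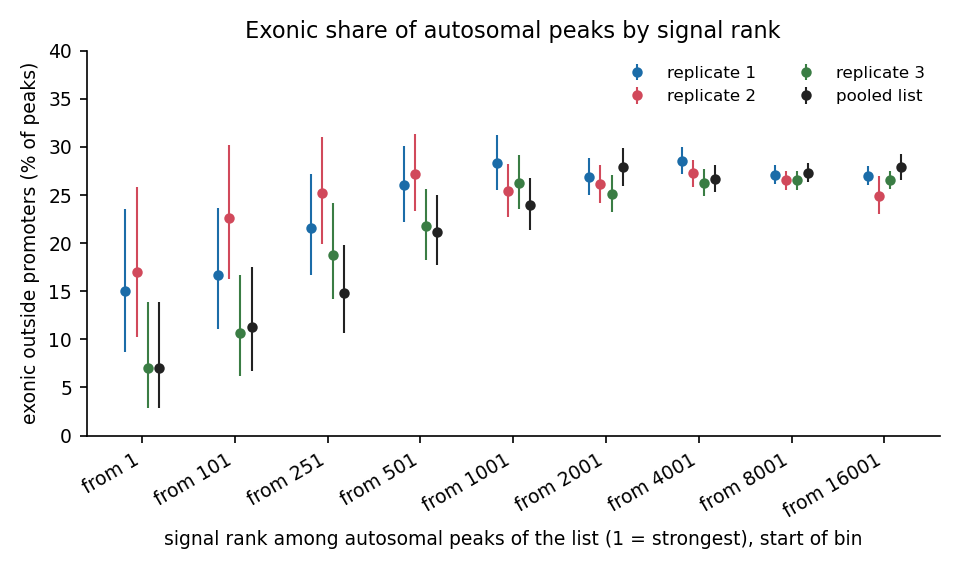
Share of autosomal peaks that were exonic outside promoters (y axis, %), by signal rank within each list (x axis, bins starting at the rank shown), for the 3 replicate lists and the pooled list. Bars are exact 95% intervals for counting error. In the pooled list the share is 7% in the first bin and 27.9% in the last, and replicate 2 shows the smallest deficit.

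Strong exonic peaks lay in 3' UTRs and near the 3' ends of genes more often than weaker ones did. This feature was noticed in the members' own values and then followed through the replicate lists. All 7 final-set members had their summits in the last exon and 6 of 7 in a 3' UTR, with a median distance of 45 bp to the 3' end of the gene. Of all members 4447 (83.1%) had a coding summit, 715 (13.4%) a 3' UTR summit and 150 (2.80%) a 5' UTR summit. Among the 535 strongest members 25.2% were in a 3' UTR and 39.6% in a last exon, against 12.05% and 24.8% of the remaining 4815. Most of the 535 were still coding (70.3%, against 84.5% of the others), and 50.8% were in an internal exon, against 65.7%. 3' UTRs held 9.56% of the exonic bases outside promoters, and the density was 386 members per Mb of 3' UTR against 262 per Mb of coding sequence. The median distance to the 3' end was 884 bp for the 535 strongest and 1376 bp for the others, while their genes were of similar length (median 3667 and 3916 bp).

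The same contrast was present in every replicate list. The pooled list, in which it was noticed, was made from the same alignments, so the replicate lists are not an independent check. The strongest 10% of exonic peaks were in a 3' UTR in 17.1% of cases in replicate 1, 18.9% in replicate 2 and 20.9% in replicate 3, and the remaining exonic peaks in 10.6%, 11.6% and 11.6%. The share was higher among the strong peaks in 3 of 3 replicates, by 7.69 ± 1.44 percentage points (SD, n = 3, exact sign-flip permutation p = 0.25). A summit within 250 bp of the 3' end of any protein-coding gene was found for 22.4%, 23.6% and 22.7% of the strongest 10%, and for 15.3%, 14.9% and 15.4% of the rest. This difference was 7.73 ± 0.859 points (SD, n = 3, exact sign-flip permutation p = 0.25) and again had the same sign in 3 of 3 replicates. Within the lists, 3' UTR peaks had a median signal percentile of 55.8, 55.6 and 56.5, and coding peaks one of 48.1, 48.8 and 47.4. Peaks just downstream of genes, outside any exon, had medians of 50.4, 50.2 and 50.4, below the 3' UTR peaks in each replicate.

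**Figure D2:**
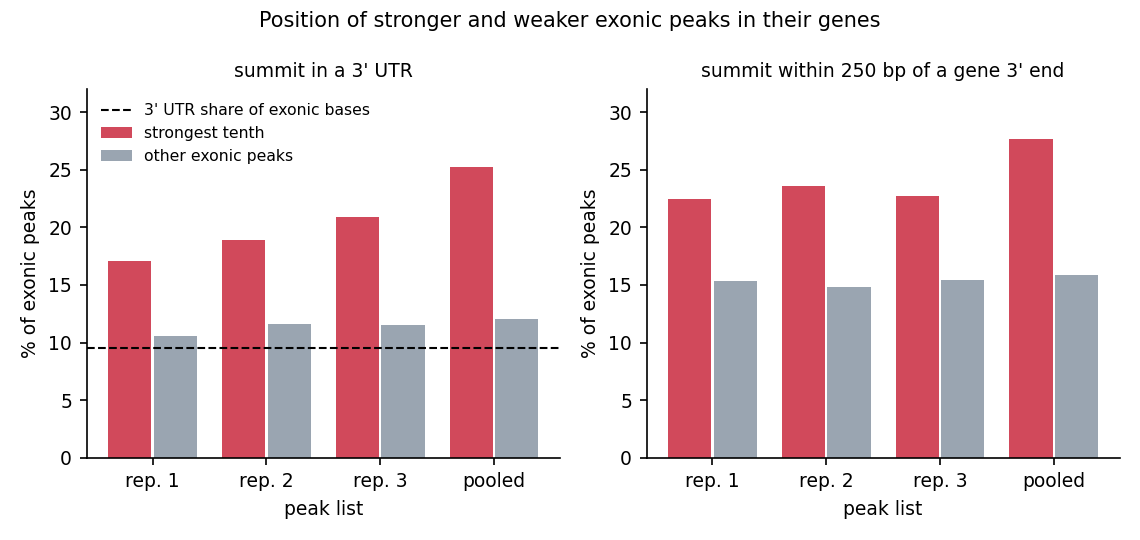
Share of exonic peaks (y axis, %) whose summit lay in a 3' UTR (left) or within 250 bp of a gene 3' end (right), in the strongest 10% of exonic peaks of each list and in the others (x axis, list). Bars are single shares per list, and the dashed line is the 3' UTR share of exonic bases outside promoters, 9.56%. The strong peaks are above the others in each of the 4 lists, the pooled list with 25.2% against 12.05%.

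The shortage of exonic peaks at the top of the lists was in coding sequence. Coding summits made up 12.8%, 17.4% and 8.4% of the 500 strongest autosomal peaks of replicates 1, 2 and 3, and 23.5%, 22.4% and 22.2% of the weaker ones (difference -9.82 ± 4.49 points, SD, n = 3, 3 of 3 lower, exact sign-flip permutation p = 0.25). 3' UTR summits made up 4.8%, 4.2% and 4.8% of the 500 strongest and 3.02%, 3.23% and 3.22% of the weaker ones (difference 1.45 ± 0.421 points, SD, n = 3, 3 of 3 higher, exact sign-flip permutation p = 0.25). In the pooled list 1 of 4447 coding members was in the final set, or 0.0225% with an exact 95% interval of 0.000569% to 0.125%. For the 3' UTR members it was 6 of 715, or 0.839% with an interval of 0.309% to 1.82%, which includes the 0.819% of promoter peaks. A q-value of 0.05 or lower was given to 1.98% of coding and 6.01% of 3' UTR members. Of the peaks just downstream of genes it was given to 6.71%, so the high share of low q-values was also present in the neighbouring sequence outside exons.

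Members close to the 3' end more often had a low q-value. The share of members with such a q-value was 8.33% (16 of 192) within 50 bp of the 3' end, 6.21% from there to 100 bp, 5.13% from 100 to 250 bp and 3.24% from 250 to 500 bp. From 500 to 1000 bp it was 1.36%, from there to 2000 bp it was 2.39% (28 of 1170), and beyond 2000 bp 1.47%, so the fall was not steady past 500 bp. The median signal moved little over the same distances, from 9.86 within 50 bp to 9.10 beyond 2000 bp. GC content changed along with distance, from a mean of 32.3% within 50 bp to 41.6% beyond 2000 bp, and its part in this difference was not tested.

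**Figure D3:**
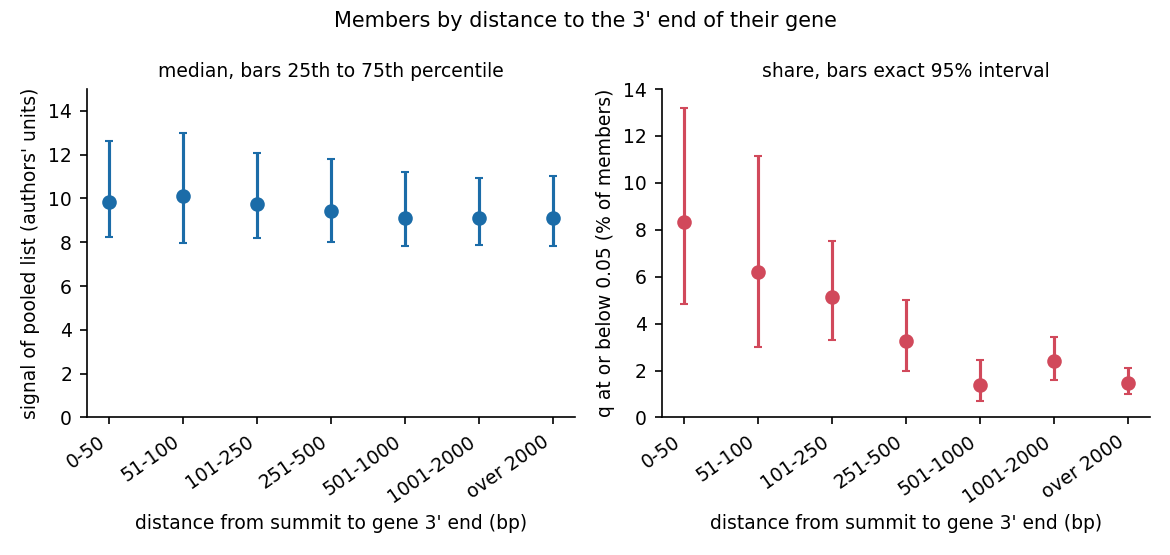
Members of the pooled list by the distance of their summit from the 3' end of the gene (x axis, bp). Left, median signal in the authors' units with bars from the 25th to the 75th percentile; right, share of members with a q-value of 0.05 or lower (%), with exact 95% intervals for counting error. The share is 8.33% within 50 bp, lowest at 1.36% from 500 to 1000 bp, 2.39% in the next bin and 1.47% beyond 2000 bp, while the medians stay between 9.10 and 10.1.

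The 7 final-set members differed in how far the replicates shared them. The strongest was at F57F5.3 (WBGene00010205, chromosome V, summit 12004677, pooled signal 44.2), the single coding one, 66 bp from the gene's 3' end. It ranked 123 in replicate 1 and 90 in replicate 3 and had no summit within 100 bp in replicate 2. The end of cpr-9, which runs towards F57F5.3 on the opposite strand, lay 27 bp from that gene's end, and the nearest 5' end of another gene was 1624 bp away.

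The peak at F25B5.5 (WBGene00017776, chromosome III, summit 5943865, signal 36.6) was in the 3' UTR, 32 bp from the end. It ranked 131 in replicate 2 but 2791 and 2995 in replicates 1 and 3. The peak at lelo-2 (WBGene00022348, chromosome III, summit 1419883, signal 35.1) lay 28 bp from the end and 687 bp from the 5' end of Y82E9BR.3, outside its promoter window. It ranked 81 and 63 in replicates 2 and 3 and 18682 in replicate 1. These were the final-set members with a summit in all 3 lists, and their ranks differed widely between replicates: 1 list ranked F25B5.5 far above the others, and 1 ranked lelo-2 far below.

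The remaining 4 were each matched in 2 replicates. The peak at algn-12 (WBGene00022629, chromosome V, summit 8039338, signal 33.3), a gene named for a mannosyltransferase of asparagine-linked glycosylation, ranked 582 and 133 in replicates 1 and 3. The peak at mnk-1 (WBGene00011304, chromosome II, summit 10543147, signal 32.05), which encodes a kinase acting downstream of MAP kinases, ranked 217 and 1159 there. It was the farthest from its gene's end, at 726 bp in a last exon of 1981 bp, and lay 1151 bp from the 5' end of pro-1, just outside that promoter window. The peak at ssb-1 (WBGene00016653, chromosome I, summit 4635570, signal 31.9) lay 45 bp from the end and ranked 79 and 1900 in replicates 1 and 3. The peak at nra-1 (WBGene00012128, chromosome IV, summit 17281497, signal 31.1), which encodes a copine that associates with nicotinic acetylcholine receptors, lay 42 bp from the end and ranked 1190 and 68 in replicates 2 and 3. ssb-1 and nra-1, like F57F5.3, ended close to a gene on the opposite strand, acbp-1 at 128 bp and hsp-1 at 125 bp. GC content within 100 bp of these 7 summits ran from 26.4% to 39.3%, with a mean of 31.98%, against 40.1% for all members and 33.8% for 3' UTR members.

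The next 13 members by signal were a mixture of 3' UTR and coding peaks. Of these, 4 were in a 3' UTR, 8 were coding and 1 was in an exon of a non-coding transcript. A last exon held 9 of them and 8 lay within 250 bp of the gene's 3' end, or 61.5%, against 15.3% of all members. The 3' UTR peaks below the final set were at pck-2, a phosphoenolpyruvate carboxykinase gene (signal 28.6, 197 bp from the end), where exons of F31E3.12 and eef-1A.1 overlap, the latter for translation elongation factor 1A (27.2, 28 bp from the nearer end), at gei-17, a SUMO ligase gene (25.3, 51 bp), and at arl-13, for a small GTPase of cilia (24.7, 26 bp). The coding ones included pcyt-2.1 (28.1), crt-1 for calreticulin (25.5), hsp-1 (24.9) and egg-2, for an oocyte surface protein needed at fertilization (24.7). The peaks at pcyt-2.1, hsp-1 and Y55F3BR.2, also coding, lay within 200 bp of a snoRNA gene, as did 0.449% of all members. Among the 535 strongest members 1.31% did so, against 0.353% of the others. For tRNA genes the shares were 1.31% and 0.291%, and for other non-coding RNA (ncRNA) genes 3.74% and 1.62%. For piRNA genes (1.12% and 1.41%), miRNA genes, lincRNA genes and pseudogenes they went the other way. The peaks at Y55F3BR.2 and arl-13 and the final-set peak at mnk-1 lay within 200 bp of an ncRNA gene, and that at algn-12 within 200 bp of a pseudogene. The pcyt-2.1 peak also lay in a promoter window of some annotated transcript. mec-17, for the alpha-tubulin acetyltransferase of touch neurons, held a peak of 27.1 in an exon of a transcript annotated without coding sequence. Of the 20 members with the highest signal, final set included, 7 had a summit in all 3 replicates and 9 lay within 100 bp of the 1000 strongest peaks of at least 2 replicates.

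**Figure D4:**
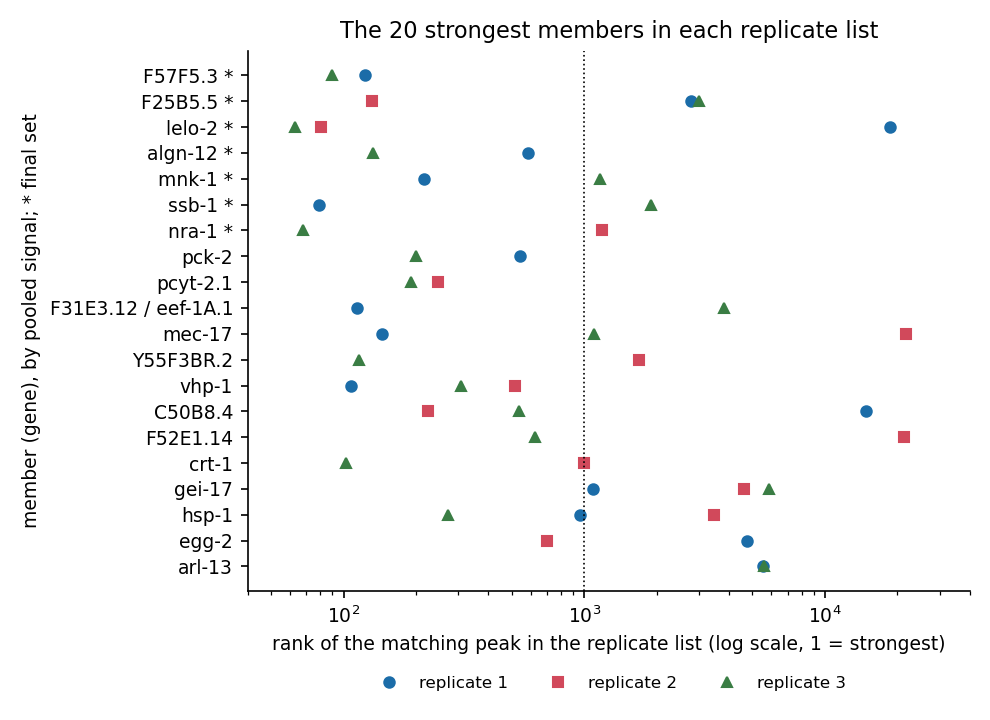
The 20 members with the highest pooled signal (y axis, by gene, strongest at the top, asterisks for the final set) and the rank of the matching peak within 100 bp in each replicate list (x axis, log scale). A missing symbol means that the list held no summit within 100 bp, and the dotted line marks rank 1000. vhp-1 alone among the 20 has all 3 symbols left of the line, at ranks 107, 517 and 308.

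Recovery in all replicates was rare. The pooled list was made from the same alignments as the replicate lists, so a match is not independent of the pooled call. No replicate list held a summit within 100 bp for 1461 members, 1 list did for 2789, 2 lists for 1003 and all 3 for 97. Those 97 were 1.81% of the members, against 2.45% of all autosomal pooled peaks. The share of members matched was 32.6% in replicate 1, 18.9% in replicate 2 and 43.6% in replicate 3, and for intronic peaks it was 31.7%, 18.4% and 45.1%. The difference of -0.0356 ± 1.29 points (SD, n = 3, exact sign-flip permutation p = 1) changed sign between replicates. Within 100 bp of the 1000 strongest peaks of at least 2 replicates lay 15 members, with a background of 0.633% of autosomal peaks, and 7 of these were coding and 7 in a 3' UTR.

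Only 2 members lay near the 1000 strongest peaks of each replicate, against 17, or 0.0847%, of the autosomal pooled peaks. The first was at vhp-1, a MAP kinase phosphatase gene (chromosome II, summit 5338352, pooled signal 26.4), whose signals of 14.8, 7.47 and 15.7 ranked 107, 517 and 308 in replicates 1, 2 and 3. Its sequence above shows the summit in an exon that ends just before an intron. This exon is the first of an annotated transcript although the gene's outermost 5' end is 15076 bp away, so it would fall in a promoter window drawn for every transcript. The second was at W06H8.6 (chromosome V, summit 6222770, pooled signal 23.2), whose signals of 9.42, 7.29 and 11.8 ranked 845, 567 and 943. It lay in a last exon of 3057 bp, in the 3' UTR and 1521 bp from its end, and within 200 bp of an ncRNA gene. Neither was in the final set. Replicate lists compared directly gave low sharing too. Between 7.47% and 12.8% of the exonic peaks of a replicate had a summit within 100 bp in another list. For intronic peaks this was 6.99% to 13.6% and for promoter peaks 9.66% to 18.7%, so low sharing was not limited to exonic peaks. Of the exonic peaks among its 500 strongest autosomal peaks, between 0.877% and 7.14% had one among the 500 strongest of that other list. For intronic peaks this was 6.03% to 9.40% and for promoter peaks 4.86% to 14.5%.

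Exonic peaks were richer in G and C than intronic peaks, as was exonic sequence itself. The mean GC content within 100 bp of the summit was 39.6%, 39.7% and 40.2% for exonic peaks of replicates 1, 2 and 3, and 35.3%, 35.2% and 35.7% for intronic ones. The difference was 4.44 ± 0.124 points (SD, n = 3, higher in 3 of 3 replicates, exact sign-flip permutation p = 0.25). Over all exonic positions outside promoters the mean was 39.3%, and over all intronic positions 33.7%, while the pooled exonic peaks averaged 40.1% and the pooled intronic peaks 36.3%. The classes are drawn by exon annotation, so the test cannot tell a trait of the peaks from one of the sequence they lie in. Coding peaks averaged 40.5%, 40.7% and 41.2% in the replicates and 3' UTR peaks 33.3%, 33.5% and 33.6%. All coding positions averaged 40.2% and all 3' UTR positions 32.6%. The strongest 10% of exonic peaks differed from the rest by -0.0081 ± 0.304 points of GC (SD, n = 3, exact sign-flip permutation p = 0.75), with both signs among the replicates, and by 0.386 points when 250 bp on each side were read. In the pooled list the coding members among the 535 strongest averaged 41.4% against 41.2% for all coding members, and those in a 3' UTR 34.7% against 33.8%.

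**Figure D5:**
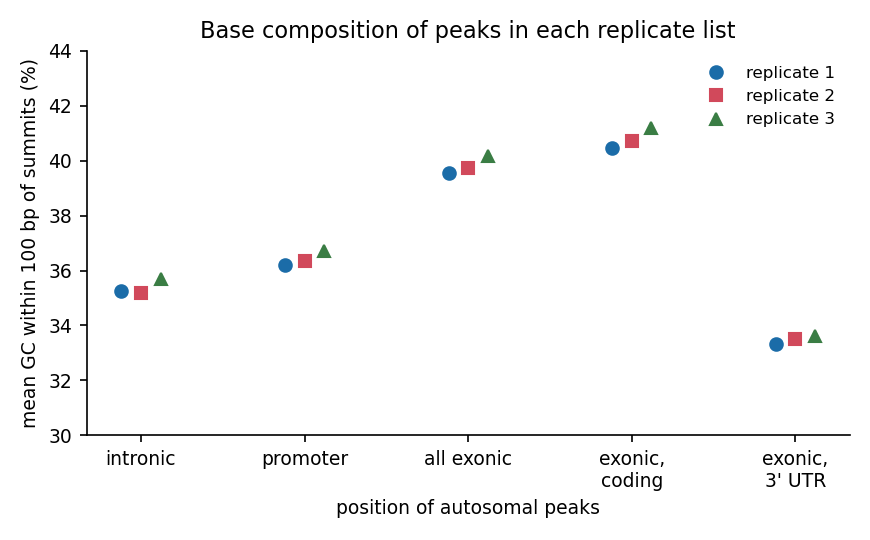
Mean GC content within 100 bp of the summit (y axis, %, starting at 30) of autosomal peaks by position (x axis), 1 symbol per replicate list. Exonic coding peaks are highest, at 40.5% to 41.2%, and exonic 3' UTR peaks lowest, at 33.3% to 33.6%, below the intronic peaks in each replicate.

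Short words were counted near the summits. AAAAAA or its reverse complement TTTTTT was present within 50 bp of the summit in 18.95% of members, 44.8% of intronic peaks and 34.6% of all autosomal pooled peaks. The palindrome AAATTT was present in 12.1% of members, 29.1% of intronic peaks and 20.7% of all. Among the 535 strongest members AAAAAA was present in 19.6%, with an exact interval of 16.3% to 23.2%, against 18.9% of the other members. AAATTT was present in 8.22% of the 535 strongest, with an interval of 6.04% to 10.9%, and in 12.5% of the others, with one of 11.6% to 13.5%. AATATT went the other way, with 10.5% (interval 8.004% to 13.4%) of the 535 strongest and 7.83% (7.09% to 8.62%) of the others. The word CCTGCG or CGCAGG was present in 1.23% of members and 1.33% of all autosomal peaks. Word rates over all exonic positions were not computed. Words were counted in the pooled list only, and no difference in them was tested over replicates. The word GAGAGA or TCTCTC was present in 6.71% of members, 8.73% of all autosomal peaks and 27.8% of the 97 autosomal final-set peaks. 1 of the 7 final-set members held it. The other words were also counted in those 97 peaks. AAAAAA was present in 13.4% of them, below the 34.6% of all autosomal peaks, and in 3 of the 7 final-set members. AAATTT was present in 6.19% of the 97, below the 20.7% of all, and in 0 of the 7. AATATT was present in 0 of the 97, against 10.2% of all. CCTGCG went the other way, with 5 of the 97 (5.15%) against 1.33% of all, and 0 of the 7. These words overlap with base composition and are matches of letters, not sites.

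The genes with the most member summits were long ones. dig-1, for a giant extracellular matrix protein of muscle and neurons, held 12 summits, all coding, in 39690 bp of exons, with a highest signal of 12.7. din-1, for a nuclear receptor co-repressor of the SHARP family, held 10 in 9785 bp, with a highest signal of 18.5. cpna-2 and let-805 held 8 each, in 23888 and 14200 bp, and ncl-1 held 7 in 4805 bp, with a highest signal of 20.6. ncl-1 encodes a repressor of ribosome production that limits nucleolar size, and 6 further genes also held 7 summits. Of the genes with a member, 3100 held 1 summit, 671 held 2 and 271 held 3 or more. The share of genes with a member rose with exonic length, from 5.71% of the 3450 genes with the least exonic sequence (up to 682 bp) to 52.2% of the 3447 with the most (from 1957 bp).

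Gene families were therefore compared by members per Mb of their exonic sequence outside promoters, for which all genes together gave 276. Of 25 families 13 were above and 12 below that density. Cytosolic ribosomal protein genes gave 667 per Mb, from 11 summits in 8 of 79 genes. That was 10.1% of the family, against 23.4% of all genes, and only 16.5 kb of its exons lay outside promoter windows. The strongest of the 11 summits, at rpl-3, was in the 3' UTR, 52 bp from the end (signal 21.0). Heat shock and chaperone genes gave 640 per Mb, with summits in 25 of 61 genes and the highest signals at hsp-1 (24.9) and hsp-110 (22.6). Glycolysis and citrate cycle genes gave 593 per Mb, with summits in 15 of 31, led by pck-2 (28.6) and the glyoxylate cycle gene icl-1 (20.1). Ubiquitin and proteasome genes gave 531 per Mb, with summits in 25 of 65, led by ubc-25 (17.9) and the proteasome subunit gene rpn-7 (15.7). These families are made up of broadly expressed genes, and expression was not measured here.

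Low densities were found among large families of chemosensory and defence genes. Chemoreceptor genes gave 172 per Mb, with summits in 154 of 1330 genes and a highest signal of 20.2 at srt-47. C-type lectin genes gave 191 per Mb, with summits in 37 of 237, and F-box and MATH genes 204 per Mb, with summits in 65 of 418. Histone genes held no member in 76 genes, but only 5.30 kb of their exons lay outside promoter windows. Muscle structure genes gave 238 per Mb, with summits in 18 of 33, and cuticle collagen genes 341 per Mb, with summits in 38 of 143. Homeobox genes gave 388 per Mb, with summits in 21 of 68 genes, led by ceh-38 (14.6). Signalling genes gave 296 per Mb, and their strongest peak was in the 3' UTR of the Notch receptor gene lin-12, 46 bp from the end (signal 21.5), before the forkhead factor gene daf-16 (19.01). No family held a final-set member. Only 7 of all 5350 members (0.131%) were in that set, so this absence is not read as a result about the families.

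The attf-4 locus itself carried dense peaks. Within 5 kb of the gene (chromosome III, 6080563 to 6084748) lay 16 pooled peaks, 11.3 per 10 kb, against 2.43 per 10 kb over the autosomes, and 4 of them were members. In attf-4 they were at 6083403 (signal 14.1) and at 6084637 (11.8), the latter where exons of attf-4 and wht-1 overlap. The strain carries extra copies of this locus, and their part in its peaks was not tested. Within 5 kb of unc-119, of which the strain also carries extra copies, lay 3 pooled peaks, against the 16 at attf-4, and all 3 were intronic.

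Members were spread over the 5 autosomes, with 1003 on chromosome IV to 1205 on chromosome V, and 1 or 2 final-set members on each. The density was higher in the central segment of each chromosome than in the outer segments on all 5, for instance 346 against 274 per Mb of exon on chromosome III. Just beyond the promoter edge, 192 members 200 to 300 bp from a 5' end had a median signal of 9.11, and 293 exonic summits 100 to 200 bp from one, which the rule leaves out, had one of 9.47. 424 members (7.93%) lay in a promoter window of some annotated transcript, and the intervals of 502 (9.38%) reached into a gene's promoter window.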

How the data were processed

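The data were ChIP-seq peak lists for tagged ATTF-4. Per the deposited file notes, the authors made 1 list per biological replicate from an alignment that its technical libraries share, a pooled list from the 3 alignments, and the final set from these by the irreproducible discovery rate. Each replicate and pooled list also drew on 1 further file, which the control-normalized tracks share and the notes do not describe. Replicate and pooled lists include background entries. The deposited lists carry, per peak, a signal and a −log10 q-value from the authors' caller. Aligner, caller, the nature of the control and the IDR threshold were not given in the sources used here, and read depth is unknown. Signal was compared between lists only by rank or percentile.

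Summits are counted from 1 on ce11. GC content was taken within 100 bp and words within 50 bp of the summit. Strong and weak peaks were compared within each replicate list, and the 3 differences were tested with a two-sided exact sign-flip permutation test, whose smallest p is 0.25. Nothing in the labels says that replicates came from separate cultures, so p-values refer to these samples only. With 3 differences of the same sign the p is 0.25, whatever their spread. Intervals are exact 95% Clopper-Pearson intervals and cover counting error only. Steps were checked on simulated data. The members, gene lists and tests were chosen with earlier results of these data known, and the 3' end comparisons after the members' values were seen. Name patterns of the gene lists that had caught unrelated genes were corrected after a first count. Genes named are those of final-set members, of the 20 strongest members, of the 5 with most summits (others tied at 7), up to 2 leading genes per list, attf-4, unc-119 and the members near the 1000 strongest peaks of each replicate. pigt-1, C14B4.2, dnpp-1, sid-2 and F01F1.3 come from the sequence rule. Python 3.11.15, numpy 2.4.6, scipy 1.17.1 and pandas 2.3.3 were used with Ensembl release 115.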

Additional observations from a re-analysis of the deposited data

How the results depend on the processing

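The 12 results were recomputed under 5 to 9 alternatives each, 80 in all, 47 of them chosen after seeing the data, and 75 kept the direction and stayed within the limits set for change. The exceptions were few. Counting coding sequence only left 1 member in the final set in place of 7. The GC difference between the strongest 10% of exonic peaks and the rest turned to 0.386 points with 250 bp on each side of the summit, and ranged from -0.164 to 0.140 without 1 replicate each. The difference in recovery between exonic and intronic peaks turned to 0.0451 points with summits within 50 bp, and ranged from -0.487 to 0.706 without 1 replicate each. Both differences were smaller than their spread over replicates as reported. The cause was not tested. With a promoter window reaching 2000 bp upstream and 500 bp downstream there were 3822 members, 6 of them in the final set, and with one of 500 and 100 bp there were 6195 and 7. The exonic share of as many strongest peaks as the final set holds differed from that of the others by -13.3 points, and that of the 2000 strongest by -2.51. The deficit at 500 peaks ranged from -10.4 to -6.08 points without 1 replicate each, and the excess of 3' UTR summits in the strongest 10% from 6.89 to 8.28. Leaving out peaks within 20 kb of attf-4 and unc-119 gave -8.16 points and 7.65 points. The replicates are 3, so no test could reach a p under 0.25, and under 0.5 with 2.

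No paired analysis was possible because all samples belong to 1 condition, so replicate numbers pair no groups of samples. The differences between kinds of peaks were taken within each replicate list, as reported.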
